A study of Mus musculus with 12 samples.

Results

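Autophagy genes were followed in adult mouse neural stem cells (NSCs) that were either cycling or held in 1 of 2 kinds of quiescence. The 38 genes were taken by symbol from the 17365 genes of the deposited count table, as a list of the core machinery of autophagosome formation together with the main ubiquitin-binding cargo receptors. All 38 were present in the table and all 38 passed the filter on low counts, which left 13312 genes for testing. The measurement was bulk RNA-seq of 12 libraries from 2 NSC lines, ANS4 from the MF1 strain and BL6 from the C57BL/6 strain, with 2 replicates of each line in each of 3 conditions. Each line stands for its strain alone, so line and strain cannot be told apart.

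Both lines had been derived from the subventricular zone of mice aged 6 to 8 weeks and were grown as adherent cultures on laminin in serum-free medium with N2 and B27 supplements, which all groups share. The proliferating group received EGF and FGF-2 (EGF/FGF). For quiescence the cells were plated sparsely without EGF and kept for 3 days in BMP-4 alone (BMP, the dormant quiescent NSCs or d-qNSCs of the study) or in BMP-4 with FGF-2 (BMP/FGF, the primed quiescent NSCs or p-qNSCs), each factor at 10 ng/ml. There are therefore 4 libraries per condition, which the submitters describe as biological replicates within each line. The p-values measure the spread between these samples only, and part of that spread may be technical.

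Autophagy encloses cytoplasm in a double membrane, the autophagosome, which fuses with lysosomes so that its contents are broken down and reused. A kinase complex around ULK1 and ULK2 starts the process, a class III PI3 kinase complex marks the growing membrane with PI3P, and ubiquitin-like conjugation systems attach proteins of the ATG8 family (LC3 and GABARAP proteins) to its lipids. Cargo receptors bind marked cargo on one side and ATG8 proteins on the other. In the adult brain, quiescent NSCs are known for their high content of lysosomes, and proteins of this pathway are controlled to a large part after transcription, so transcript levels are not a measure of autophagic flux.

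The 12 libraries held 18069052 to 19451818 estimated counts, so that 3 counts corresponded to 0.154 to 0.166 CPM (counts scaled to the same total in every library), far under the lowest value of any autophagy gene. NSC markers (Sox2, Nes, Vim and 5 others) were present in every library, at summed levels of 7273 to 7885 CPM in EGF/FGF, 9165 to 10419 CPM in BMP and 11076 to 11660.0 CPM in BMP/FGF. That sum was carried mainly by Vim and Fabp7 in EGF/FGF and by Vim and Slc1a3 in both quiescent conditions. Nes went from 498 to 625 CPM in EGF/FGF to 116 to 141 CPM in BMP and 112 to 119 CPM in BMP/FGF, and Fabp7 from 2184 to 2595 CPM to 277 to 665 and 1238 to 1528 CPM. The 4 proliferation markers summed to 1752 to 2172 CPM in EGF/FGF, 259.7 to 434 CPM in BMP and 178 to 193 CPM in BMP/FGF, and the 5 astrocyte markers to 1249 to 1495, 3496 to 4453 and 5871 to 6009 CPM. Gfap, Aqp4 and Gja1 were higher in both quiescent conditions. Aldh1l1 overlapped between EGF/FGF (846 to 1052 CPM) and BMP (817 to 1143 CPM) and lay at 1656 to 1976 CPM in BMP/FGF. S100b stayed at 2.96 CPM or less. Neuron markers were also higher in both quiescent conditions (15.9 to 18.5 CPM in EGF/FGF against 142 to 271 CPM in BMP and 55.3 to 64.3 CPM in BMP/FGF, mainly Tubb3, with Rbfox3 at 0.208 CPM or less throughout). Among oligodendrocyte markers, Cldn11 lay at 2.33 CPM or less in EGF/FGF, 6.69 to 14.4 CPM in BMP and 5.71 to 9.05 CPM in BMP/FGF. Mbp lay at 0.258 to 0.776, 3.26 to 4.97 and 2.68 to 3.69 CPM in the same order. Mobp was lower in BMP, at 5.21 to 8.47 CPM, against 10.5 CPM or more in EGF/FGF and 14.4 CPM or more in BMP/FGF. Opalin overlapped between all conditions at 0.886 CPM or less, Mag lay at 0.990 CPM or less and Mog at 0.261 CPM or less. Of 4 ependymal markers 3 were measured, at a combined 62.9 to 78.0 CPM in EGF/FGF, 191 to 232 CPM in BMP and 196 to 209.5 CPM in BMP/FGF, mainly Foxj1, with Ccdc153 at 0.485 CPM or less. Of 8 microglia markers 5 were measured, and their sums were low, at 9.56 to 14.7, 5.31 to 6.18 and 7.15 to 9.37 CPM. Of 5 endothelial markers 3 were measured, at a combined 4.32 CPM or less. The part of these shifts in the levels of autophagy genes was not tested, and in bulk RNA fewer cells of a type and less RNA per cell cannot be told apart. The BL6 BMP replicates stood apart from the other pairs: their counts differed by a mean chi-square of 12.2 per gene against 2.12 to 4.68 for the other 5 pairs of replicates.

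Levels are given as CPM scaled by the trimmed mean of M values (TMM) over the tested genes, always in the order ANS4 replicate 1, ANS4 replicate 2, BL6 replicate 1 and BL6 replicate 2. Differences are log2 fold changes ± SE from edgeR's quasi-likelihood test with the line as a covariate (n = 4 libraries per condition, two-sided, Benjamini-Hochberg adjusted over all 13312 tested genes), and a gene was called higher or lower at an adjusted p under 0.05. Gene positions are those of GENCODE vM21 on GRCm38 (mm10) and span the whole gene. BMP and BMP/FGF were both compared with the same 4 EGF/FGF libraries, so these comparisons share their controls and are set side by side without a test of their likeness.

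Against EGF/FGF, 29 of the 38 autophagy genes (76.3%) were called higher in BMP, beside 40.8% of all tested genes, and 6 (15.8%) were called lower, beside 38.8%. The median log2 fold change of the 38 was 0.73, and that of all tested genes 0.02. In BMP/FGF 29 genes (76.3%) were again called higher, beside 40.9% of all tested genes, and 4 (10.5%) lower, beside 38.0%, with a median of 0.59 against 0.02. The sizes were moderate: only Map1lc3b and Wipi1 rose past a log2 fold change of 1.5, in both BMP and BMP/FGF, which is 2 of 38 beside 10.9% and 10.6% of all tested genes. Leaving out BL6 BMP replicate 1 gave 29 higher and 6 lower in BMP, and leaving out replicate 2 gave 28 and 5. Seen by condition, the mean level was highest in BMP for 19 genes, in BMP/FGF for 13 and in EGF/FGF for 6. This order ignores the spread between libraries, and 22 of the 38 genes were not called between BMP/FGF and BMP. The same count was not made over all tested genes, so it does not set the autophagy genes apart.

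**Figure D1:**
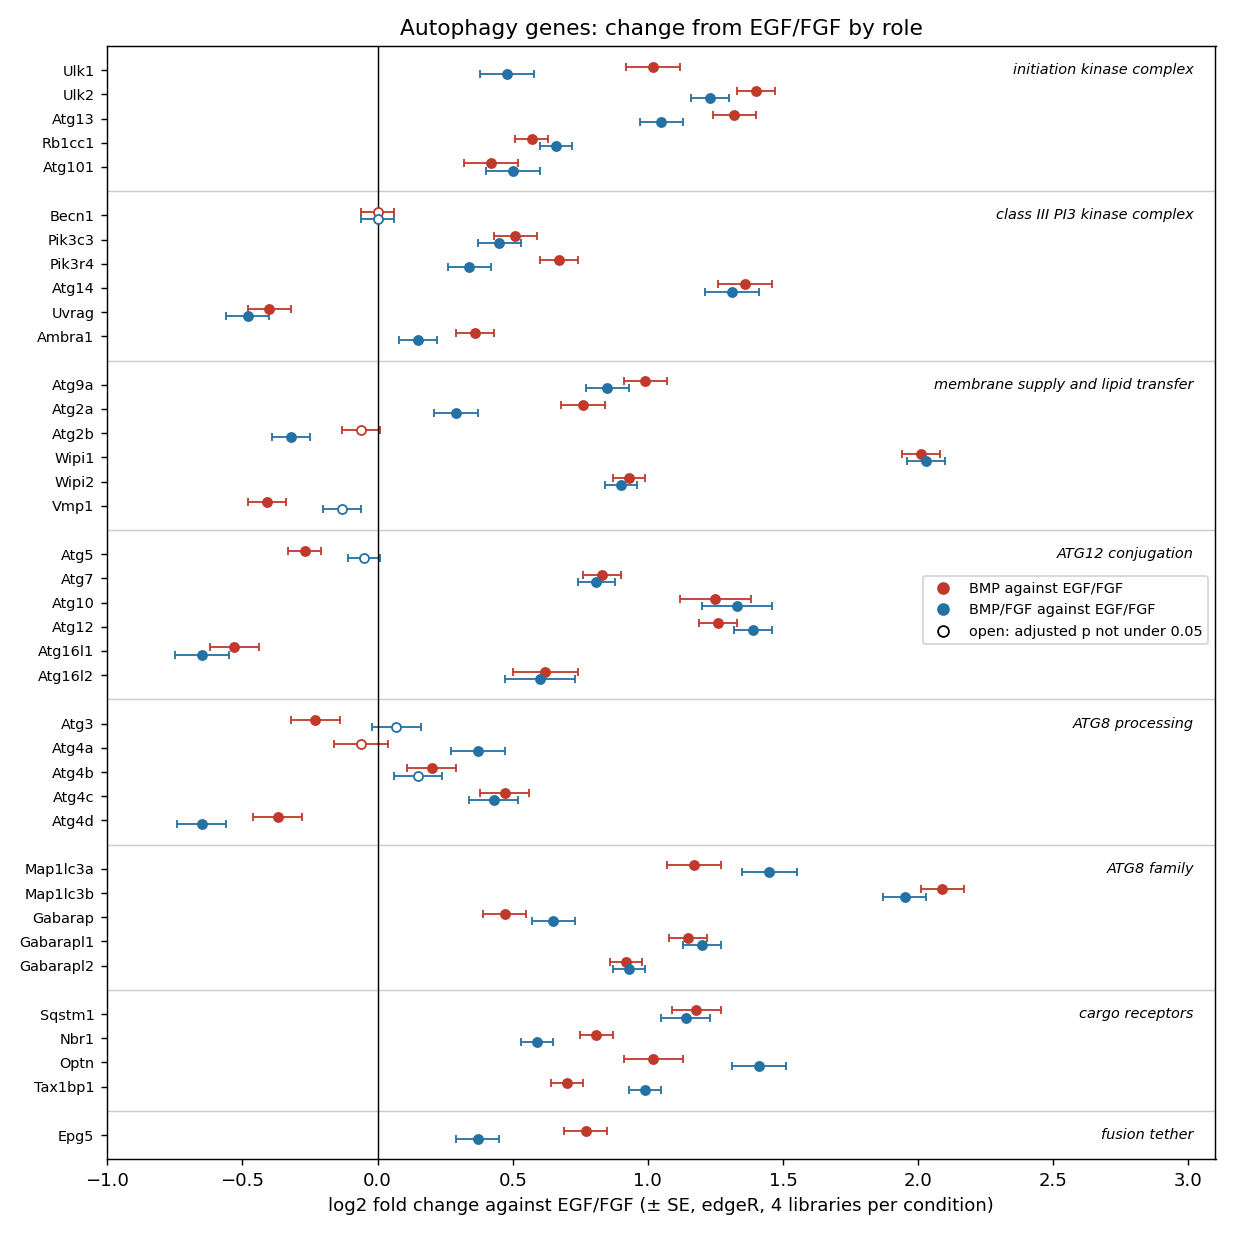
Log2 fold change against EGF/FGF (x axis) for each of the 38 autophagy genes (y axis), ordered by role, for BMP (red) and for BMP/FGF (blue), with bars for the SE and open points where the adjusted p was not under 0.05. Most points lie to the right of 0, Map1lc3b lies at 2.09 and 1.95 and Wipi1 at 2.01 and 2.03, and Atg16l1, Atg4d and Uvrag lie to the left in both.

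All 5 genes of the initiation kinase complex rose in BMP and in BMP/FGF, with medians of 1.02 and 0.66 on the log2 scale. Ulk2 (chr11:61775649-61855073, minus strand), a kinase that phosphorylates the rest of the machinery, stood at 84.8, 83.7, 74.7 and 75.9 CPM in EGF/FGF, 196, 206, 221 and 218 CPM in BMP and 171, 185, 201 and 196 CPM in BMP/FGF. Every quiescent library lay above every EGF/FGF library, with the ANS4 libraries below the BL6 libraries in both quiescent conditions. The log2 fold change of Ulk2 was 1.40 ± 0.07 in BMP (2.63-fold, adjusted p = 2.15e-12) and 1.23 ± 0.07 in BMP/FGF (2.35-fold, adjusted p = 1.21e-11). Ulk1 (chr5:110784488-110810097, minus strand), the paralogue that is switched by mTORC1 and AMPK, measured 46.3, 47.4, 52.1 and 50.2 CPM in EGF/FGF, 78.0, 88.6, 102 and 132 CPM in BMP and 70.2, 66.6, 70.1 and 66.5 CPM in BMP/FGF. The 3 conditions did not overlap for Ulk1, and BMP held both the highest and the most scattered values, 132 CPM in BL6 replicate 2 against 78.0 CPM in ANS4 replicate 1. Its change was 1.02 ± 0.10 in BMP (adjusted p = 2.22e-08) and 0.48 ± 0.10 in BMP/FGF (adjusted p = 1.92e-04).

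Atg13 (chr2:91674618-91710576, minus strand), the subunit that links the kinase to its scaffold, rose from 28.2, 26.4, 25.3 and 24.7 CPM in EGF/FGF to 56.9, 63.3, 66.9 and 74.3 CPM in BMP and 52.6, 51.0, 59.3 and 54.5 CPM in BMP/FGF. Both quiescent groups were clear of EGF/FGF, and the change was 1.32 ± 0.08 in BMP (adjusted p = 3.47e-11) and 1.05 ± 0.08 in BMP/FGF (adjusted p = 8.93e-10). The scaffold Rb1cc1 (FIP200) rose by less, 1.49-fold in BMP and 1.58-fold in BMP/FGF, and Atg101, which steadies Atg13, rose 1.34-fold and 1.41-fold. Per kilobase of transcript, Ulk2 was the most abundant gene of the complex in all 3 conditions, at 13.9, 36.6 and 32.7 CPM per kb in EGF/FGF, BMP and BMP/FGF, beside 11.1, 22.7 and 15.5 for Ulk1.

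In the class III PI3 kinase complex 4 of 6 genes rose, 1 fell and 1 was not called, in BMP and in BMP/FGF alike. Atg14 (chr14:47540893-47570649, minus strand), the subunit that directs the kinase to the site of autophagosome formation, was the gene of this group with the greatest change. Its values were 12.6, 13.8, 11.1 and 11.6 CPM in EGF/FGF, 30.1, 28.3, 36.6 and 30.8 CPM in BMP and 33.0, 30.1, 27.5 and 31.2 CPM in BMP/FGF. The lowest quiescent library, BL6 BMP/FGF replicate 1 at 27.5 CPM, lay far above the highest EGF/FGF library at 13.8 CPM, and the change was 1.36 ± 0.10 in BMP (2.56-fold, adjusted p = 4.77e-10) and 1.31 ± 0.10 in BMP/FGF (2.48-fold, adjusted p = 8.67e-10).

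Uvrag (chr7:98885021-99141141, minus strand) takes the place of Atg14 in a second form of the complex that acts on endosomes, and it moved the other way. It measured 34.7, 30.8, 30.2 and 29.2 CPM in EGF/FGF, 23.8, 21.8, 26.8 and 22.2 CPM in BMP and 21.0, 21.9, 22.9 and 23.6 CPM in BMP/FGF, with no overlap between EGF/FGF and either quiescent group. Uvrag fell by 1.32-fold in BMP (log2 -0.40 ± 0.08, adjusted p = 2.46e-04) and by 1.40-fold in BMP/FGF (log2 -0.48 ± 0.08, adjusted p = 3.92e-05). Of its transcript sequence, 19.3% of 31-base words also occur in transcripts of other genes, mostly Gm45187, so part of its count is uncertain. The lipid kinase itself, Pik3c3 (VPS34), stood at 48.3, 46.2, 43.8 and 44.7 CPM in EGF/FGF, 56.3, 59.6, 76.4 and 70.1 CPM in BMP and 61.9, 60.2, 63.6 and 64.5 CPM in BMP/FGF. All quiescent libraries exceeded EGF/FGF, and the BL6 BMP libraries were the highest. Pik3c3 rose by 0.51 ± 0.08 in BMP (adjusted p = 8.11e-06) and by 0.45 ± 0.08 in BMP/FGF (adjusted p = 3.93e-05).

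Pik3r4 (chr9:105642978-105687657, plus strand), the regulatory subunit VPS15, had 36.6, 39.7, 35.7 and 31.4 CPM in EGF/FGF, 55.4, 58.0, 61.6 and 53.5 CPM in BMP and 45.9, 42.8, 47.3 and 45.5 CPM in BMP/FGF, so that the conditions formed 3 separate steps with BMP/FGF in the middle. The change was 0.67 ± 0.07 in BMP (adjusted p = 1.77e-07) and 0.34 ± 0.08 in BMP/FGF (adjusted p = 4.73e-04). Ambra1, which regulates the complex, rose 1.28-fold in BMP, and its call in BMP/FGF (1.11-fold, adjusted p = 0.0484) was lost under 18 of 22 other settings. Becn1, the scaffold shared by both forms, was called in no comparison, at 68.0, 71.6, 69.3 and 72.1 CPM in EGF/FGF, 71.0, 76.3, 70.6 and 64.0 CPM in BMP and 71.8, 70.9, 63.5 and 74.4 CPM in BMP/FGF. Those ranges overlapped, with a log2 difference of 0.00 ± 0.06 in BMP, and 40.0% of the 31-base words of Becn1 are shared with other genes, nearly all with its neighbour Cntd1.

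Among the genes for membrane supply and lipid transfer, Wipi1 (chr11:109573331-109611967, minus strand) carried the greatest change. WIPI1 is a PI3P-binding protein of the early autophagosome. Its transcript stood at 25.0, 23.3, 23.4 and 20.6 CPM in EGF/FGF, 85.5, 90.2, 92.9 and 103 CPM in BMP and 93.4, 90.5, 97.9 and 96.1 CPM in BMP/FGF. No EGF/FGF library exceeded 25.0 CPM and no quiescent library fell below 85.5 CPM. The log2 fold change was 2.01 ± 0.07 in BMP (4.02-fold, adjusted p = 4.38e-14) and 2.03 ± 0.07 in BMP/FGF (4.09-fold, adjusted p = 3.74e-14). Wipi2, the relative that recruits ATG16L1, rose 1.90-fold and 1.86-fold, and Atg9a, a lipid scramblase on the vesicles that seed the membrane, 1.99-fold and 1.81-fold. Of the 31-base words of Atg9a, 32.4% are shared with other genes, mainly Gm29253, so its level is uncertain.

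The lipid transfer paralogues Atg2a and Atg2b went separate ways. Atg2a (chr19:6241668-6262335, plus strand) measured 30.9, 30.3, 29.8 and 32.3 CPM in EGF/FGF, 48.7, 51.5, 47.5 and 61.1 CPM in BMP and 37.5, 36.2, 37.0 and 40.0 CPM in BMP/FGF. The 3 conditions did not overlap, and Atg2a rose by 0.76 ± 0.08 in BMP (adjusted p = 4.77e-08) and by 0.29 ± 0.08 in BMP/FGF (adjusted p = 0.00241). Atg2b (chr12:105616136-105685211, minus strand) measured 72.2, 73.1, 71.1 and 71.0 CPM in EGF/FGF, 62.7, 68.4, 77.6 and 68.5 CPM in BMP and 55.8, 51.2, 64.3 and 60.4 CPM in BMP/FGF. Its BMP libraries overlapped EGF/FGF (log2 difference -0.06 ± 0.07, adjusted p = 0.458), whereas all BMP/FGF libraries lay below, a fall of 1.24-fold (log2 -0.32 ± 0.07, adjusted p = 3.85e-04). Vmp1 (chr11:86583865-86683836, minus strand), a scramblase of the endoplasmic reticulum needed for autophagosome formation, showed 100.3, 98.9, 107 and 107 CPM in EGF/FGF, 82.1, 84.4, 69.7 and 73.8 CPM in BMP and 88.4, 91.6, 103 and 92.6 CPM in BMP/FGF. All 4 BMP libraries lay below every library of the other conditions. The fall of Vmp1 in BMP was -0.41 ± 0.07 on the log2 scale (adjusted p = 3.41e-05), but limma on the deposited rlog values gave -0.13 (adjusted p = 0.102). In BMP/FGF the groups overlapped, at -0.13 ± 0.07 (adjusted p = 0.0861). That difference was called with BL6 BMP/FGF replicate 1 left out, at -0.20. It was also called with library size only (-0.16), with only the 8 libraries compared (-0.15) and with ANS4 alone (-0.15).

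Of the 6 genes of ATG12 conjugation, 4 rose in BMP and 2 fell, and in BMP/FGF 4 rose, 1 fell and 1 was not called. Atg12, the ubiquitin-like protein itself, measured 50.6, 51.4, 39.9 and 43.9 CPM in EGF/FGF, 119, 121, 106 and 101 CPM in BMP and 116, 122, 124 and 122 CPM in BMP/FGF. The lowest quiescent library stood at 101 CPM and the highest EGF/FGF library at 51.4 CPM. Atg12 rose by 1.26 ± 0.07 in BMP (2.40-fold, adjusted p = 1.16e-11) and by 1.39 ± 0.07 in BMP/FGF (2.62-fold, adjusted p = 3.48e-12). The enzymes that carry it rose as well, Atg7, the E1 enzyme, 1.78-fold and 1.76-fold and Atg10, the E2 enzyme, 2.38-fold and 2.52-fold.

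Its acceptor and the partner of the conjugate did not rise. Atg5 (chr10:44268358-44364291, plus strand), to which ATG12 is joined, had 58.5, 55.5, 49.1 and 53.8 CPM in EGF/FGF, 48.5, 47.8, 42.7 and 41.2 CPM in BMP and 51.7, 54.9, 51.9 and 51.2 CPM in BMP/FGF. The BMP libraries all lay below EGF/FGF, by -0.27 ± 0.06 (adjusted p = 5.59e-04), and the BMP/FGF libraries overlapped EGF/FGF, at -0.05 ± 0.06 (adjusted p = 0.472). Atg16l1 (chr1:87755870-87792428, plus strand), which brings the conjugate to the membrane, had 17.9, 18.1, 21.3 and 22.4 CPM in EGF/FGF, 12.5, 12.5, 14.7 and 15.3 CPM in BMP and 13.6, 13.2, 11.5 and 12.2 CPM in BMP/FGF. In both quiescent conditions every library lay below every EGF/FGF library. Atg16l1 fell 1.45-fold in BMP (log2 -0.53 ± 0.09, adjusted p = 4.99e-05) and 1.57-fold in BMP/FGF (log2 -0.65 ± 0.10, adjusted p = 6.27e-06), the deepest fall of the 38 genes in BMP and level with that of Atg4d in BMP/FGF. Its paralogue Atg16l2 rose 1.53-fold and 1.51-fold from the lowest level of the list per length, 1.15 CPM per kb in EGF/FGF, and stayed below Atg16l1 per length, at 1.77 against 4.45 CPM per kb in BMP and 1.74 against 4.09 in BMP/FGF.

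**Figure D2:**
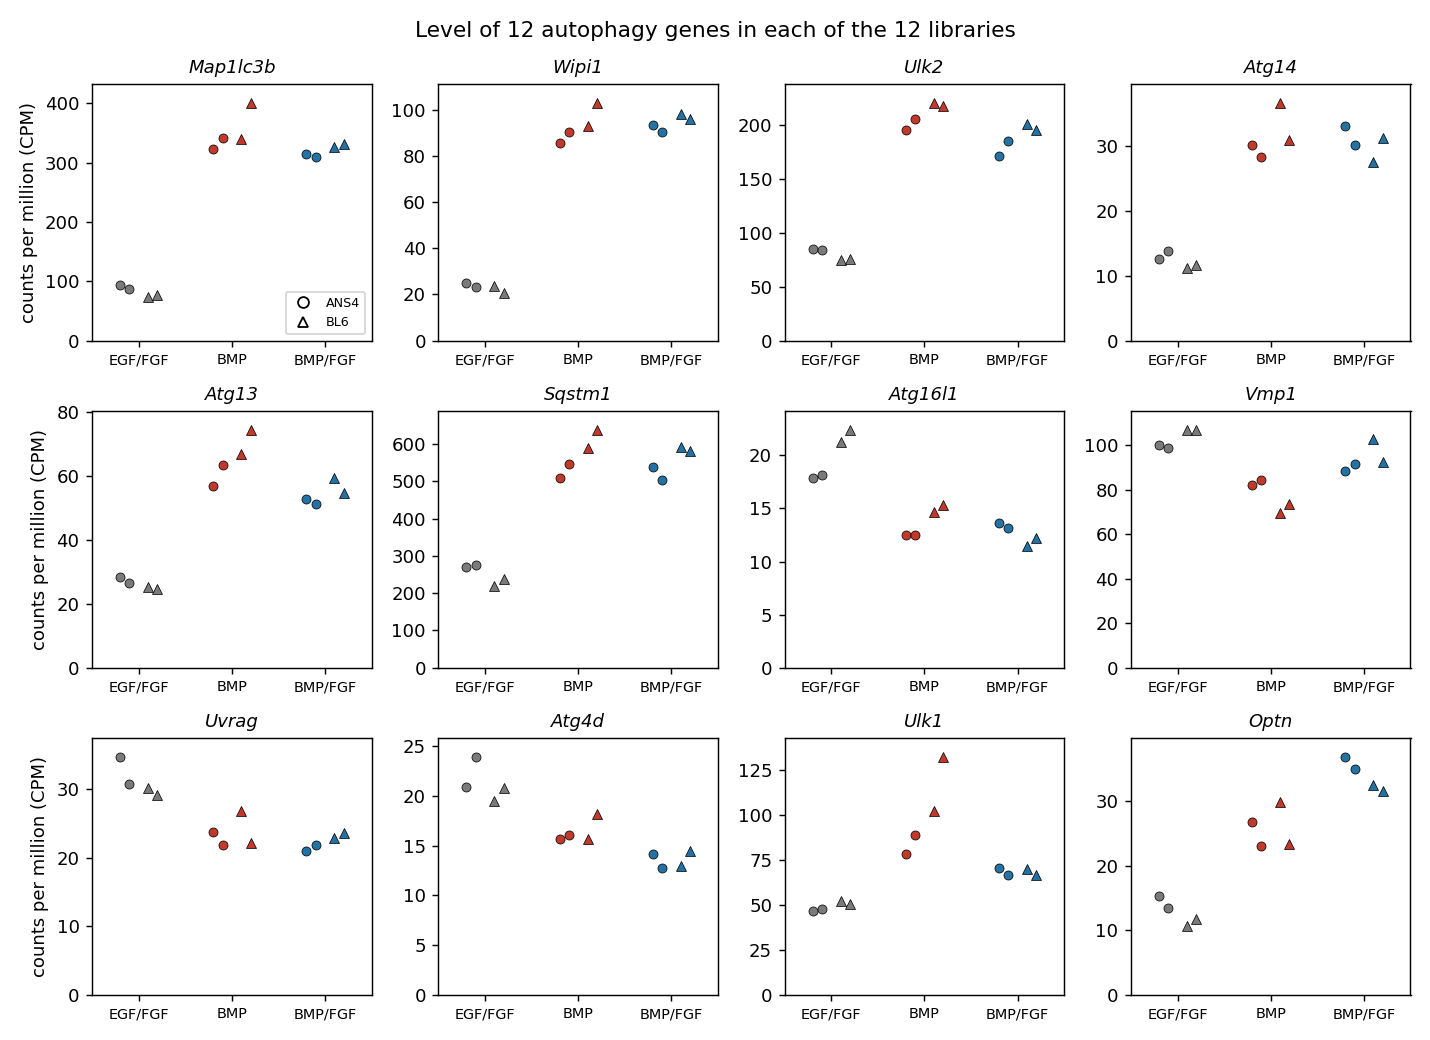
CPM of each library (y axis) in EGF/FGF, BMP and BMP/FGF (x axis) for 12 autophagy genes, 1 panel per gene, with circles for ANS4 and triangles for BL6. In the panels of Map1lc3b, Wipi1 and Ulk2 all 8 quiescent libraries lie above the 4 EGF/FGF libraries, and in that of Atg16l1 they lie below.

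The group of ATG8 processing, taken here as Atg3 and the ATG4 genes, showed the least common direction: in BMP 2 rose, 2 fell and 1 was not called, with a median of -0.06, and in BMP/FGF 2 rose, 1 fell and 2 were not called, with a median of 0.15. Atg3 (chr16:45158785-45188538, plus strand), the E2 enzyme that passes ATG8 proteins to lipid, measured 77.3, 63.6, 68.5 and 74.0 CPM in EGF/FGF, 71.3, 54.1, 61.4 and 55.9 CPM in BMP and 78.1, 82.3, 67.4 and 70.8 CPM in BMP/FGF. The BMP and EGF/FGF libraries overlapped, and the lower level in BMP (-0.23 ± 0.09, adjusted p = 0.0228) was no longer called without ANS4 BMP replicate 2 (-0.16), ANS4 EGF/FGF replicate 1 (-0.20), BL6 BMP replicate 2 (-0.20) or BL6 EGF/FGF replicate 2 (-0.18). ANS4 alone did not give the call either (-0.17). Against EGF/FGF, BMP/FGF gave 0.07 ± 0.09 (adjusted p = 0.446).

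The 4 ATG4 proteases cut ATG8 proteins before loading and free them from lipid afterwards. Atg4d (chr9:21265293-21277772, plus strand) fell in both comparisons, from 20.9, 23.9, 19.5 and 20.8 CPM in EGF/FGF to 15.7, 16.1, 15.7 and 18.2 CPM in BMP and 14.2, 12.7, 12.9 and 14.5 CPM in BMP/FGF. The 3 conditions did not overlap. The change was -0.37 ± 0.09 in BMP (adjusted p = 8.42e-04) and -0.65 ± 0.09 in BMP/FGF (adjusted p = 3.07e-06), and 16.5% of the 31-base words of Atg4d are shared with the neighbouring gene Kri1. With BL6 alone the fall of Atg4d in BMP was not called (-0.27). Atg4c rose 1.38-fold and 1.35-fold. Atg4b, the protease with the broadest action on ATG8 proteins, was called higher in BMP (0.20 ± 0.09, adjusted p = 0.0423), a call lost under 13 of 22 other settings and lowest, at 0.10, without BL6 BMP replicate 2. The other libraries whose removal ended that call were ANS4 BMP replicate 2 (0.18), ANS4 BMP/FGF replicate 1 (0.19), ANS4 EGF/FGF replicate 1 (0.20), both BL6 BMP/FGF replicates (0.19 each) and BL6 EGF/FGF replicates 1 (0.16) and 2 (0.20). In BMP/FGF Atg4b was at 0.15 ± 0.09 (adjusted p = 0.122) and was called, at 0.15, without BL6 BMP replicate 2 and, at 0.14, with only the 8 libraries compared.

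Atg4a (chrX:140956907-141164270, plus strand) had 21.2, 19.0, 16.2 and 18.9 CPM in EGF/FGF, 22.1, 18.5, 16.1 and 15.8 CPM in BMP and 22.6, 25.2, 22.6 and 26.4 CPM in BMP/FGF. Only BMP/FGF lay clear of EGF/FGF, by 0.37 ± 0.10 (adjusted p = 0.00236), while BMP overlapped it (-0.06 ± 0.10, adjusted p = 0.613). Because 60.8% of the 31-base words of Atg4a also occur in the copy Atg4a-ps, its counts could be split between the 2 by the pseudoalignment and are uncertain.

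The 5 ATG8 genes all rose in BMP and in BMP/FGF, with medians of 1.15 and 1.20. ATG4 cuts each ATG8 protein behind a glycine near its end, and that glycine is then joined to lipid. The ends of 4 of the 5 coding sequences are shown because they hold this processing site, with the glycine codon in capitals and the stop codon as the last 3 bases (GRCm38, GENCODE vM21, all on the plus strand and each within 1 coding exon).
Map1lc3a, chr2:155277617-155277637: caagaaaccttcGGCttctga
Gabarap, chr11:69994504-69994524: gaaagcgtctatGGTctgtga
Gabarapl1, chr6:129541147-129541167: gaaagtgtctatGGAaaatga
Gabarapl2, chr8:111952385-111952405: gagaacacttttGGCttctga

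Map1lc3b (chr8:121590361-121598760, plus strand), which encodes the LC3B protein used as the standard marker of autophagosomes, stood at 93.3, 87.0, 74.1 and 76.4 CPM in EGF/FGF, 323, 341, 339.9 and 401 CPM in BMP and 315, 309.8, 326 and 331 CPM in BMP/FGF. All quiescent libraries were at 309.8 CPM or more and all EGF/FGF libraries at 93.3 CPM or less, and BL6 BMP replicate 2 was the highest. The log2 fold change was 2.09 ± 0.08 in BMP (4.25-fold, adjusted p = 1.39e-13) and 1.95 ± 0.08 in BMP/FGF (3.88-fold, adjusted p = 3.16e-13). Map1lc3a (chr2:155276297-155278073, plus strand), which encodes LC3A, stood at 39.8, 49.5, 29.8 and 34.5 CPM in EGF/FGF, 90.9, 90.6, 81.7 and 81.6 CPM in BMP and 95.5, 105, 106 and 109 CPM in BMP/FGF. The EGF/FGF libraries were scattered, with 49.5 CPM in ANS4 replicate 2 against 29.8 CPM in BL6 replicate 1, but none reached a quiescent library. Map1lc3a rose by 1.17 ± 0.10 in BMP (2.26-fold, adjusted p = 4.24e-09) and by 1.45 ± 0.10 in BMP/FGF (2.73-fold, adjusted p = 2.56e-10).

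Gabarap (chr11:69991143-69994951, plus strand) showed the smallest rise of the family, from 228, 217, 177 and 168 CPM in EGF/FGF to 287, 275, 238 and 292 CPM in BMP and 290.5, 307, 319.8 and 319 CPM in BMP/FGF. Its lowest quiescent library, BL6 BMP replicate 1 at 238 CPM, lay just above its highest EGF/FGF library at 228 CPM. The change was 0.47 ± 0.08 in BMP (adjusted p = 5.84e-05) and 0.65 ± 0.08 in BMP/FGF (adjusted p = 1.42e-06). Gabarapl1 rose 2.23-fold and 2.30-fold and Gabarapl2 1.89-fold and 1.90-fold, with 25.2% and 15.3% of their 31-base words shared with other genes.

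Levels within the family were compared per kilobase of transcript. In EGF/FGF the order was Gabarap (188 CPM per kb), Gabarapl1 (103), Map1lc3b (49.3), Map1lc3a (34.5) and Gabarapl2 (34.0). The libraries of Map1lc3a overlapped those of Map1lc3b and of Gabarapl2 in this condition. In BMP Gabarap stood at 260, Gabarapl1 at 230 and Map1lc3b at 209 CPM per kb, followed by Map1lc3a at 77.5 and Gabarapl2 at 64.4, and the libraries of Gabarapl1 overlapped those of Gabarap and of Map1lc3b. In BMP/FGF the values were 294, 237, 191, 93.5 and 64.4 CPM per kb in the same order, with no overlap between neighbours. These levels divide by the mean length of the coding transcripts in the annotation, and the isoforms in use were not analysed here.

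**Figure D3:**
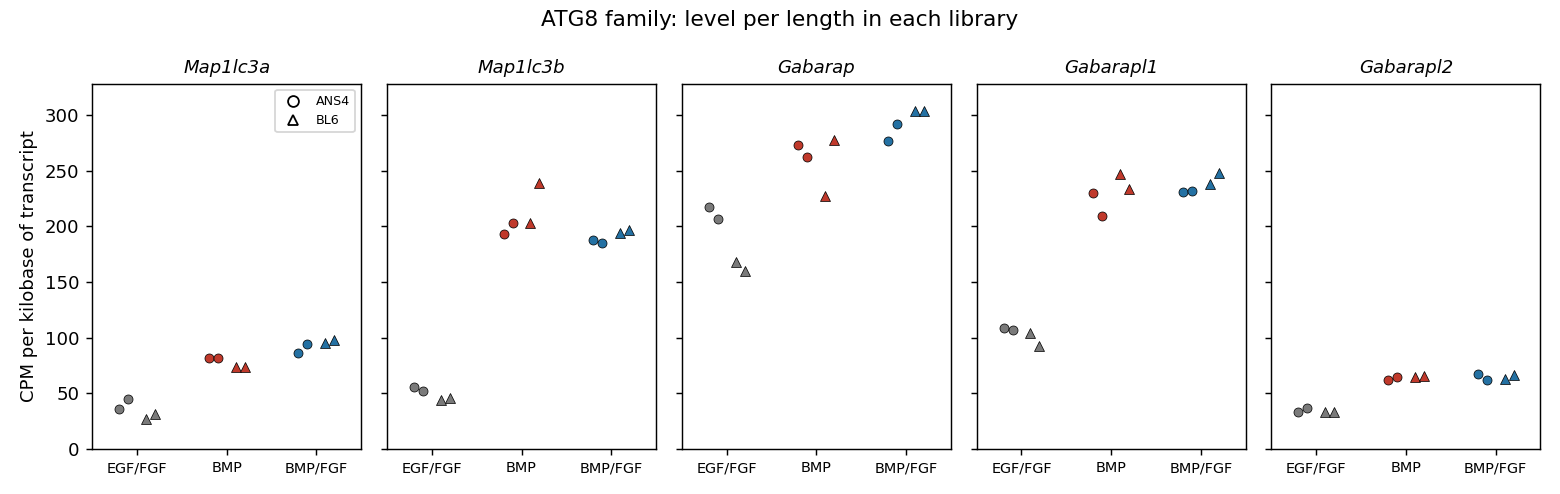
CPM per kilobase of transcript (y axis) of the 5 ATG8 genes, 1 panel per gene, in each library of EGF/FGF, BMP and BMP/FGF (x axis), with circles for ANS4 and triangles for BL6. Gabarap has the highest mean in each condition (188, 260 and 294), and the mean of Map1lc3b goes from 49.3 in EGF/FGF to 209 in BMP and 191 in BMP/FGF.

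All 4 cargo receptors rose in both quiescent conditions, with medians of 0.92 in BMP and 1.07 in BMP/FGF. Sqstm1 (chr11:50199366-50210827, minus strand) encodes p62, which gathers ubiquitin-tagged protein and is itself degraded by autophagy. Its values were 269.8, 275, 219 and 239 CPM in EGF/FGF, 509.7, 546, 590.0 and 638 CPM in BMP and 539, 503, 591 and 581 CPM in BMP/FGF. The lowest quiescent library, 503 CPM, lay far above the highest EGF/FGF library, 275 CPM, and the BL6 libraries were the lower ones in EGF/FGF and the higher ones in quiescence. Sqstm1 rose by 1.18 ± 0.09 in BMP (2.27-fold, adjusted p = 5.04e-10) and by 1.14 ± 0.09 in BMP/FGF (2.20-fold, adjusted p = 9.15e-10). Of the 31-base words of Sqstm1, 16.4% are shared with other genes, almost all with Mrnip.

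Optn (chr2:5020642-5064051, minus strand), the receptor optineurin, which acts on damaged mitochondria and on bacteria, measured 15.3, 13.5, 10.7 and 11.7 CPM in EGF/FGF, 26.8, 23.0, 29.8 and 23.4 CPM in BMP and 36.8, 35.0, 32.4 and 31.6 CPM in BMP/FGF. The conditions formed 3 steps with no overlap. Optn rose by 1.02 ± 0.11 in BMP (2.02-fold, adjusted p = 7.17e-08) and by 1.41 ± 0.10 in BMP/FGF (2.66-fold, adjusted p = 7.37e-10). Tax1bp1 (chr6:52713729-52766780, plus strand), a receptor for protein aggregates, had 174, 173, 179 and 179 CPM in EGF/FGF, 293, 261, 315 and 279.6 CPM in BMP and 352, 359, 346 and 347 CPM in BMP/FGF, again as 3 separate steps. It rose by 0.70 ± 0.06 in BMP (adjusted p = 4.72e-09) and by 0.99 ± 0.06 in BMP/FGF (adjusted p = 4.48e-11). Nbr1, a relative of p62, rose by 0.81 ± 0.06 in BMP and by 0.59 ± 0.06 in BMP/FGF. Per length, Sqstm1 was the most abundant receptor in each condition (126, 287 and 278 CPM per kb) and Optn the least (5.09, 10.2 and 13.5).

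Epg5, the tether that helps autophagosomes fuse with late endosomes and lysosomes, measured 27.7, 29.8, 28.2 and 27.8 CPM in EGF/FGF, 43.8, 48.4, 53.4 and 48.3 CPM in BMP and 33.9, 32.2, 40.6 and 40.6 CPM in BMP/FGF. BMP/FGF lay between the other conditions without overlap, and Epg5 rose by 0.77 ± 0.08 in BMP (adjusted p = 3.47e-08) and by 0.37 ± 0.08 in BMP/FGF (adjusted p = 2.56e-04).

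The direct comparison of the 2 quiescent states, BMP/FGF against BMP, asked where dormant and primed cells differ. Of the 38 genes, 7 (18.4%) were called higher in BMP/FGF, beside 20.1% of all tested genes, 9 (23.7%) were called lower, beside 21.3%, and 22 were not called. Both shares are near those of all tested genes, and the median log2 difference was -0.03. Leaving out BL6 BMP replicate 1 gave 6 higher and 9 lower, and leaving out replicate 2 gave 7 and 7. No change was greater than 1.45-fold. The genes higher in BMP/FGF were Atg4a, Optn, Atg3, Tax1bp1, Vmp1, Map1lc3a and Atg5, and those lower were Ulk1, Atg2a, Epg5, Pik3r4, Atg4d, Atg13, Atg2b, Nbr1 and Ambra1.

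By role, the initiation kinase complex had 2 genes lower and none higher, the class III PI3 kinase complex 2 lower and none higher, and the membrane genes 2 lower and 1 higher. Ulk1 differed the most, at -0.53 ± 0.10 (1.45-fold lower in BMP/FGF, adjusted p = 2.57e-04), with 66.5 to 70.2 CPM in BMP/FGF against 78.0 to 132 CPM in BMP. Atg2a was lower by -0.47 ± 0.08 (adjusted p = 9.50e-05), with no BMP/FGF library above 40.0 CPM and no BMP library below 47.5 CPM. Epg5 was lower by -0.40 ± 0.07 (adjusted p = 3.87e-04) and Pik3r4 by -0.33 ± 0.07 (adjusted p = 0.00168), each without overlap. Atg4d was lower by -0.27 ± 0.09 (adjusted p = 0.0223). That call was lost without ANS4 BMP/FGF replicate 2 (-0.24), BL6 BMP replicate 2 (-0.21) or BL6 BMP/FGF replicate 1 (-0.26). It was also lost in each line alone, at -0.24 in ANS4 and -0.31 in BL6. The smaller difference of Ambra1, -0.21 ± 0.07, was lost without BL6 BMP replicate 2 (-0.15) and with ANS4 alone (-0.12). Ulk2 was not called, at -0.16 ± 0.07 (adjusted p = 0.0580), but was called without ANS4 BMP replicate 1 (-0.19) or BL6 BMP/FGF replicate 1 (-0.20). It was also called with library size only (-0.21), DESeq2 size factors (-0.17) or the DESeq2 Wald test (-0.17). The same held with only the 8 libraries compared (-0.16) or ANS4 alone (-0.18).

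In the other direction, the group of ATG8 processing and the cargo receptors held 2 higher and 1 lower each. Atg4a was higher in BMP/FGF by 0.42 ± 0.10 (1.34-fold, adjusted p = 0.00234), with 22.6 to 26.4 CPM against 15.8 to 22.1 CPM in BMP. Optn was higher by 0.39 ± 0.10 (adjusted p = 0.00400), Atg3 by 0.30 ± 0.09 (adjusted p = 0.0102), Tax1bp1 by 0.29 ± 0.06 (adjusted p = 8.48e-04) and Vmp1 by 0.28 ± 0.07 (adjusted p = 0.00450). Groups did not overlap for Optn, Tax1bp1 and Vmp1, and they did for Atg3, whose ANS4 BMP replicate 1 stood at 71.3 CPM. With ANS4 alone the calls of Atg4a (0.23), Vmp1 (0.11) and Atg5 (0.14) were lost, and with BL6 alone that of Optn (0.27). Of the ATG8 family Map1lc3a alone was called, at 0.27 ± 0.09 (adjusted p = 0.0283), and this was lost without either ANS4 BMP replicate (0.27 each), BL6 BMP replicates 1 (0.28) or 2 (0.27), or BL6 BMP/FGF replicates 1 (0.23) or 2 (0.21). The Map1lc3a call was also lost with library size only (0.23), limma on rlog values (0.25), no line term (0.27) or ANS4 alone (0.15). Gabarap, at 0.18 ± 0.08 (adjusted p = 0.0933), was called without ANS4 BMP/FGF replicate 1 (0.23) or BL6 BMP replicate 2 (0.25) and with BL6 alone (0.27). Map1lc3b, at -0.13 ± 0.08 (adjusted p = 0.193), and Wipi1, at 0.02 ± 0.07 (adjusted p = 0.800), were not called, and a p that misses the threshold does not show equal levels.

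Combining the 3 comparisons, 18 genes (47.4%) were higher in both quiescent states with no call between them, beside 21.0% of all tested genes. A further 7 (18.4%, beside 8.77%) were higher in both and lower in BMP/FGF than in BMP, namely Ulk1, Atg13, Pik3r4, Ambra1, Atg2a, Nbr1 and Epg5. Map1lc3a, Optn and Tax1bp1 (7.89%, beside 5.79%) were higher in both and higher still in BMP/FGF, a share near that of all tested genes. Vmp1, Atg5 and Atg3 (7.89%, beside 2.79%) were lower in BMP than in EGF/FGF and in BMP/FGF, with no call between BMP/FGF and EGF/FGF. Uvrag and Atg16l1 (5.26%, beside 20.5%) were lower in both with no call between them. The other 5 patterns held 1 gene each (2.63%). Atg4d was lower in both and lowest in BMP/FGF, as were 5.90% of all tested genes, Atg4a was called higher in BMP/FGF against each other condition (beside 3.14%), Atg2b lower in the same way (beside 2.43%), Atg4b higher in BMP against EGF/FGF with no other call (beside 1.69%), and Becn1 had no call (beside 10.5%).

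**Figure D4:**
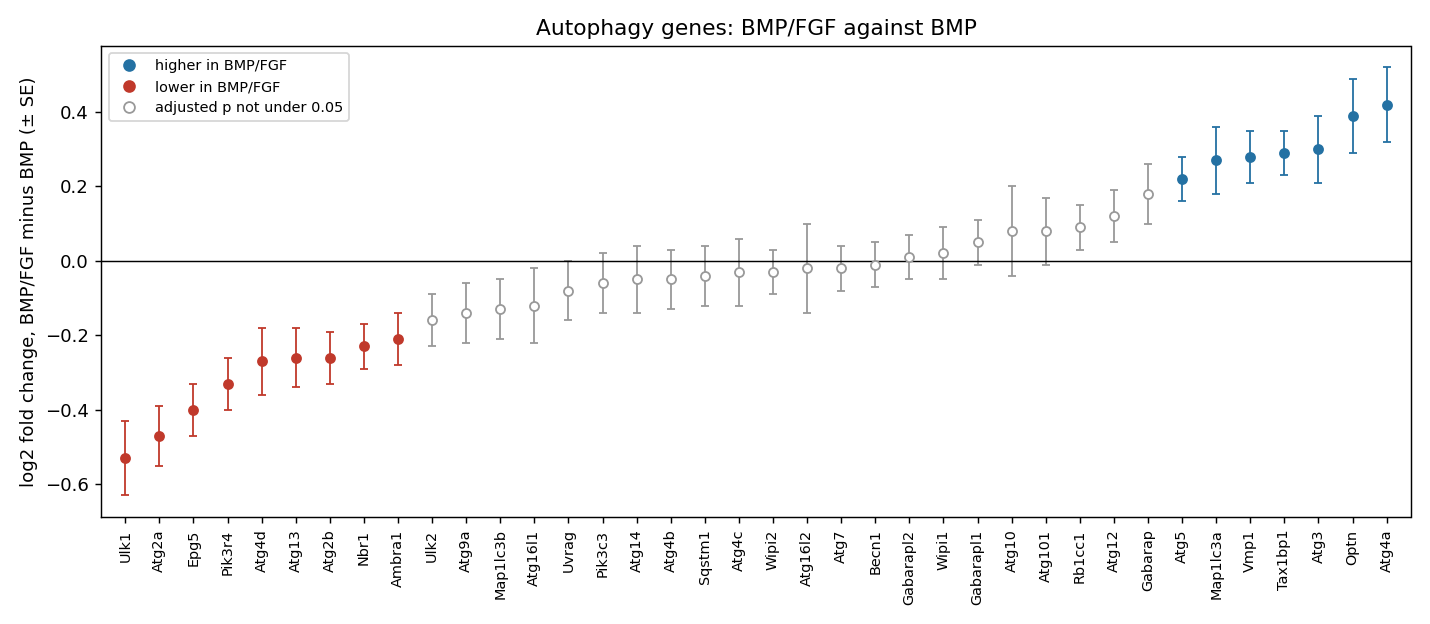
Log2 fold change of BMP/FGF against BMP (y axis, bars for the SE) for each of the 38 autophagy genes (x axis, in order of size), with filled points for called genes and open points for the others. The points run from -0.53 for Ulk1 to 0.42 for Atg4a, and the 22 open points lie from -0.16 for Ulk2 to 0.18 for Gabarap.

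The change in each line was compared by an interaction test, given as the log2 change in BL6 minus that in ANS4. In BMP against EGF/FGF, each of the 29 higher genes had a positive change in both lines and each of the 6 lower genes a negative one. These genes were called from the same libraries of both lines, so this agreement in sign is not a separate test. For 30 of the 38 genes the fitted difference was positive, with a median of 0.20 against 0.01 over all tested genes, and 5 genes (13.2%) were called, beside 9.02% of all tested genes. In BMP/FGF against EGF/FGF 4 genes (10.5%) were called, beside 4.98%, with a median difference of 0.18. In BMP/FGF against BMP 2 genes (5.26%) were called, beside 13.5%. These counts turned on single libraries. In BMP the count of 5 was 9 without BL6 BMP replicate 1 and 8 without replicate 2, 2 without replicate 1 of ANS4 EGF/FGF or replicate 2 of BL6 EGF/FGF, 1 without ANS4 BMP replicate 1 or BL6 EGF/FGF replicate 1, and 3 without any 1 of the other 6 libraries. In BMP/FGF the count of 4 was 7 without either BL6 BMP replicate, 3 without either ANS4 BMP replicate, 2 without replicate 1 of ANS4 EGF/FGF or replicate 2 of BL6 EGF/FGF, 1 without either ANS4 BMP/FGF replicate, and 0 without ANS4 EGF/FGF replicate 2, either BL6 BMP/FGF replicate or BL6 EGF/FGF replicate 1. Between BMP/FGF and BMP the count of 2 was 4 without BL6 BMP replicate 1, 5 without replicate 2, 1 without either ANS4 BMP replicate or BL6 BMP/FGF replicate 2, 0 without either ANS4 BMP/FGF replicate or BL6 BMP/FGF replicate 1, and 2 without any EGF/FGF library.

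Sqstm1 had the line difference that held under all 19 other settings: it rose by 0.95 in ANS4 and 1.42 in BL6 under BMP, a difference of 0.47 ± 0.09 (adjusted p = 0.00448). In BMP/FGF the changes of Sqstm1 were 0.93 and 1.36 (difference 0.42 ± 0.09, adjusted p = 0.0145), which was lost without ANS4 BMP/FGF replicate 2 (0.37), ANS4 EGF/FGF replicate 2 (0.41), BL6 BMP/FGF replicate 1 (0.41) or 2 (0.43), or BL6 EGF/FGF replicate 1 (0.36). Map1lc3b rose by 1.88 in ANS4 and 2.30 in BL6 under BMP (difference 0.42 ± 0.10, adjusted p = 0.0184). This was lost without ANS4 BMP replicate 1 (0.37), ANS4 EGF/FGF replicate 1 (0.37) or BL6 EGF/FGF replicates 1 (0.40) or 2 (0.44). It was also lost with only the 8 libraries compared (0.41). Pik3c3 rose by 0.29 and 0.73 (difference 0.43 ± 0.10, adjusted p = 0.0125), which was lost without ANS4 BMP replicate 1 (0.38), ANS4 EGF/FGF replicate 1 (0.40) or BL6 EGF/FGF replicate 1 (0.42). The call of Pik3c3 was also lost with only the 8 libraries compared (0.42).

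For Map1lc3a in BMP/FGF the changes were 1.17 in ANS4 and 1.74 in BL6 (difference 0.57 ± 0.13, adjusted p = 0.0181). The call of Map1lc3a was lost without ANS4 BMP/FGF replicate 1 (0.50), ANS4 EGF/FGF replicate 2 (0.40), BL6 BMP/FGF replicates 1 (0.59) or 2 (0.54), or BL6 EGF/FGF replicate 1 (0.46). Gabarap rose by 0.43 in ANS4 and 0.89 in BL6 (difference 0.46 ± 0.11, adjusted p = 0.0228), a call lost without any 1 of the 8 BMP/FGF and EGF/FGF libraries (0.43 to 0.50). Ulk2 stood close to the threshold: the differences of 0.29 ± 0.09 in BMP (adjusted p = 0.0495) and 0.32 ± 0.09 in BMP/FGF (adjusted p = 0.0467) were lost on leaving out any library other than the BL6 BMP replicates (0.24 to 0.33 and 0.26 to 0.37). Of all 19 other settings, 3 gave the call of Ulk2 in BMP and 6 in BMP/FGF. Vmp1 fell by -0.26 in ANS4 and -0.57 in BL6 under BMP (difference -0.31 ± 0.10, adjusted p = 0.0487), which was lost on leaving out any library other than BL6 BMP replicate 2 (-0.34 to -0.27). Only 2 of the 19 other settings gave this call of Vmp1.

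Between the quiescent states Ulk1 was lower in BMP/FGF by -0.28 in ANS4 and -0.77 in BL6 (difference -0.49 ± 0.14, adjusted p = 0.0255). This difference of Ulk1 was -0.29 and not called without BL6 BMP replicate 2, the library with 132 CPM, and it was also lost without ANS4 BMP replicate 1 (-0.39), ANS4 BMP/FGF replicates 1 (-0.43) or 2 (-0.53) or BL6 BMP/FGF replicates 1 (-0.51) or 2 (-0.44). With only the 8 libraries compared it was -0.49 and not called. Vmp1 was higher by 0.11 and 0.45 (difference 0.33 ± 0.10, adjusted p = 0.0279), lost without ANS4 BMP replicate 2 (0.31), ANS4 BMP/FGF replicates 1 (0.33) or 2 (0.35) or BL6 BMP/FGF replicate 1 (0.27). That call was also lost with library size only (0.26) and with only the 8 libraries compared (0.33).

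**Figure D5:**
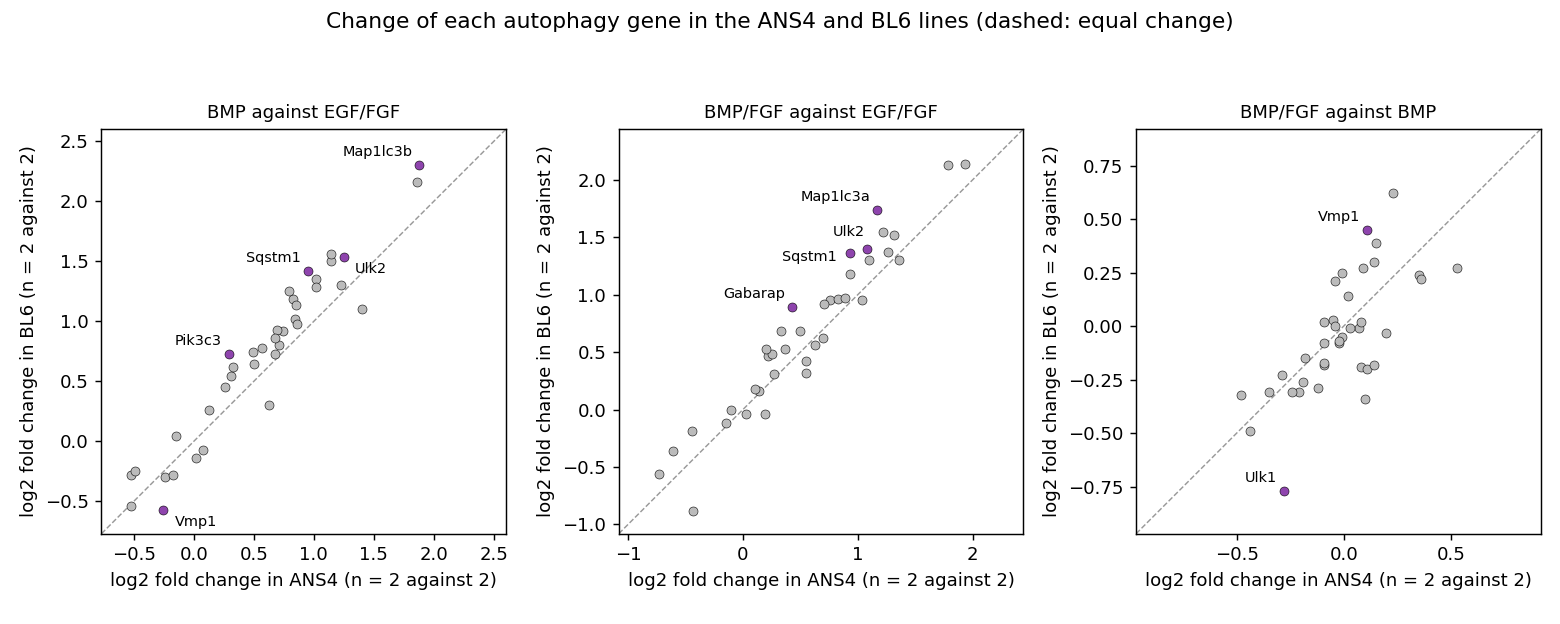
Log2 fold change in ANS4 (x axis) and in BL6 (y axis) for the 38 autophagy genes, in 1 panel for each of the 3 comparisons, with a dashed line of equal change and the genes with a called line difference coloured and named. Under BMP against EGF/FGF 30 of 38 points lie above the dashed line, with Sqstm1 at 0.95 in ANS4 and 1.42 in BL6, and between BMP/FGF and BMP 16 do.

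Transcription of lysosome and autophagy genes is known to be driven by the TFEB family of factors, which bind E-boxes, and by FOXO factors. RefSeq promoter sequence (GRCm38.p6, 250 bases before to 50 after the start site) was matched by symbol for 31 of the 38 genes. There was no entry for Atg12, Pik3c3, Map1lc3a, Epg5, Becn1, Rb1cc1 and Atg16l1. The E-box core CACGTG, which reads the same on both strands, occurred in 4 of the 31 promoters (12.9%), beside 8.09% of all promoters of this length and 11.6% of those of tested genes. The longer form TCACGTG, which contains it and was sought on both strands, occurred in 3 (9.68%, beside 4.29% and 6.92%), namely Atg7, Atg14 and Atg3. The FOXO core GTAAACA occurred in none (beside 4.05% and 3.01%), and the cAMP response element TGACGTCA in 2 (6.45%, beside 2.03% and 3.63%), Atg5 and Atg16l2. A match of letters is a description of the sequence and does not show binding.

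The stretches around the E-boxes are printed with CACGTG in capitals, read 5′ to 3′ on the strand of the gene and are shown since the 4 genes moved in different directions. By the gene spans of GENCODE vM21 the stretch lies 27850 bases inside Atg7 and 2197 bases inside Atg14, and in front of Atg5 and Atg3, so for Atg7 and Atg14 the RefSeq start site used here is inside the annotated gene.
Atg7, chr6:114670947-114670986, plus strand: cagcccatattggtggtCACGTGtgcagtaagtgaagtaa
Atg5, chr10:44268308-44268347, plus strand: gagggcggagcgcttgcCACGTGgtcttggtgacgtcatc
Atg14, chr14:47568413-47568452, minus strand: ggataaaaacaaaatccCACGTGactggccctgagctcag
Atg3, chr16:45158718-45158780, plus strand: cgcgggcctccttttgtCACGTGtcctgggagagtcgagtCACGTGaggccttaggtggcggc
The match begins 132 bases before the RefSeq start site in Atg7, 14 in Atg5 and 1 in Atg14, and Atg3 holds 2 matches, beginning 94 and 71 bases before it. Of these genes Atg7 and Atg14 rose in BMP by 0.83 ± 0.07 and 1.36 ± 0.10, and Atg5 and Atg3 were lower by -0.27 ± 0.06 and -0.23 ± 0.09.

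Other genes of the pathway were taken as 4 lists, and those named here were chosen after their values were seen. Of 28 genes of upstream control by mTORC1, AMPK and TFEB, 16 were higher in BMP, 4 lower and 8 not called (median 0.20), and in BMP/FGF 12, 4 and 12 (median 0.12). The higher genes are 57.1% and 42.9% of the list, beside 40.8% and 40.9% of all tested genes, so that the share in BMP/FGF is near the background, and the lower genes are 14.3% in each, beside 38.8% and 38.0%. The 3 listed genes of the TFEB family were higher in both: Mitf went from 4.49 CPM in EGF/FGF to 13.0 in BMP and 10.9 in BMP/FGF (1.53 ± 0.12 and 1.27 ± 0.12), Tfe3 from 66.5 to 100.0 and 84.6 CPM (0.59 ± 0.06 and 0.35 ± 0.06) and Tfeb from 16.0 to 20.7 and 24.1 CPM (0.37 ± 0.10 and 0.60 ± 0.10). Sesn1, a leucine sensor that restrains mTORC1, rose 3.26-fold in BMP and 2.97-fold in BMP/FGF, while its paralogue Sesn2 fell by -0.37 ± 0.10 and -0.38 ± 0.10 on the log2 scale. Adjusted p-values of these changes ran from 3.45e-13 for Sesn1 in BMP to 0.00243 for Sesn2 in BMP. Sesn3, the other listed paralogue of Sesn1, had higher means in quiescence, at 45.6, 127 and 109.8 CPM in EGF/FGF, BMP and BMP/FGF. The means of the listed FOXO genes were also higher in quiescence. Foxo1 stood at 34.8, 88.2 and 60.1 CPM in EGF/FGF, BMP and BMP/FGF, and Foxo3 at 37.5, 89.4 and 67.5 CPM.

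Of 19 other selective autophagy receptors tested, 15 were higher in BMP, 1 lower and 3 not called (median 0.85), and in BMP/FGF 13, 3 and 3 (median 0.98). That is 78.9% and 68.4% higher, beside 40.8% and 40.9% of all tested genes, and 5.26% and 15.8% lower, beside 38.8% and 38.0%. Retreg1, a receptor for the endoplasmic reticulum also called FAM134B, rose from a mean of 8.56 CPM in EGF/FGF to 93.4 in BMP (3.45 ± 0.09, adjusted p = 1.16e-15) and 82.1 in BMP/FGF (3.27 ± 0.09, adjusted p = 2.38e-15). Pink1, the kinase that marks damaged mitochondria for removal, rose from 51.3 to 361 CPM (2.82 ± 0.10, adjusted p = 3.02e-14) and 288 CPM (2.50 ± 0.10, adjusted p = 1.32e-13). Phb2, an inner membrane protein of mitochondria that serves as a receptor for their removal, fell from 202 to 96.8 and 102 CPM (-1.06 ± 0.06 and -0.98 ± 0.06, adjusted p = 3.84e-11 and 1.14e-10).

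Of 15 genes of autophagosome and lysosome fusion, 9 were higher in BMP, 1 lower and 5 not called (median 0.63), and in BMP/FGF 11, 1 and 3 (median 0.47). That is 60.0% and 73.3% higher, beside 40.8% and 40.9% of all tested genes, and 6.67% lower in each, beside 38.8% and 38.0%. Vps41 and Tecpr1 rose 2.08-fold and 2.02-fold in BMP, and Vps16, like Vps41 a subunit of the HOPS tether, fell by -0.30 ± 0.07 (adjusted p = 5.78e-04). Of 15 other core factors tested, 8 were higher in BMP, 5 lower and 2 not called (median 0.17), and in BMP/FGF 8, 4 and 3 (median 0.16). The higher share of 53.3% in each and the lower shares of 33.3% and 26.7% stand closer to those of all tested genes than in the receptor and fusion lists. Here Wdr45, which encodes the WIPI4 relative of WIPI1, rose 3.98-fold in BMP (1.99 ± 0.10, adjusted p = 2.15e-12) and 3.73-fold in BMP/FGF (1.90 ± 0.10, adjusted p = 4.46e-12). Between BMP/FGF and BMP, where 20.1% of all tested genes were higher and 21.3% lower, the upstream list held 2 higher and 9 lower of 28 genes (7.14% and 32.1%) and the other core factors 6 higher and 2 lower of 15 (40.0% and 13.3%). The receptor list, with 3 higher and 3 lower of 19 (15.8% each), and the fusion list, with 3 and 3 of 15, were at or under the background.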

How the data were processed

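Libraries were prepared from total RNA with a low input protocol for BGISEQ-500RS. Per the methods and labels, the authors trimmed reads with Trim Galore 0.5.0, pseudoaligned them to the mm10 transcriptome with Kallisto 0.44.0 and summed transcripts to genes with Tximport. The annotation release and the strand setting are not given in the sources used here. The authors deposited estimated counts, rounded to whole numbers, and a second table of log2 values from the regularized logarithm (rlog) of DESeq2 1.27.32, both unpooled.

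Estimated counts were filtered with edgeR's filterByExpr (13312 genes tested, 4053 not), scaled by TMM and fitted with glmQLFit (edgeR 4.0.16, R 4.3.3) on all 12 libraries with condition and line as terms. The two-sided test was glmQLFTest, with p-values adjusted by the Benjamini-Hochberg method across the 13312 genes. Line differences were interaction contrasts in a model with 1 mean per line and condition. The scripts were tested on simulated counts. Totals of 18069052 to 19451818 counts per library put 3 counts at 0.154 to 0.166 CPM.

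The members and lists were chosen with earlier results of these data known. Every member is counted in its role group. Full values are given for the 5 largest rises and falls among called members with a mean of at least 1 CPM in each comparison, for the 5 largest called line differences, and for Becn1, which was added after its values were seen. The alternatives were a Wald test in DESeq2 1.42.0, its size factors in edgeR, scaling by library size only, limma-trend 3.58.1 on rlog values, no filter, no line term, a replicate block, a fit to the 8 libraries of a comparison, a fit to 1 line, and leaving out 1 library at a time. Levels per kilobase divide CPM by the mean length of the coding transcripts in GENCODE vM21, and shared sequence is the share of 31-base words of a gene's transcripts found in transcripts of another gene on either strand. A marker of another cell type, the sum that includes it, 1 coding end and the line differences of 1 pathway gene are not reported here. Figures were drawn with matplotlib 3.10.9 in Python 3.11.15.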

Additional observations from a re-analysis of the deposited data

Results flagged for a closer look

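In 2 of 114 groups of 4 libraries of 1 autophagy gene and condition, 1 library lay far from the other 3 (Dixon's test at the 95% level). Chance flags about 1 in 20 groups where all 4 values come from 1 normal population. Each group here pools 2 lines, so the count cannot be set against that rate. Atg4d in BMP stood at 18.2 CPM in BL6 replicate 2 and at 15.7 to 16.1 CPM in the others. Gabarapl2 in EGF/FGF stood at 61.7 CPM in ANS4 replicate 2 and at 55.0 to 56.1 CPM in the others.

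The change in BL6 differed from that in ANS4 by the interaction test for these autophagy genes. In BMP against EGF/FGF the log2 difference, BL6 minus ANS4, was 0.29 for Ulk2, 0.43 for Pik3c3, -0.31 for Vmp1, 0.42 for Map1lc3b and 0.47 for Sqstm1. In BMP/FGF against EGF/FGF it was 0.32 for Ulk2, 0.57 for Map1lc3a, 0.46 for Gabarap and 0.42 for Sqstm1. Between BMP/FGF and BMP it was -0.49 for Ulk1 and 0.33 for Vmp1. Of the 77 genes of the 4 other pathway lists, the difference was called for 12 in BMP (15.6%, beside 9.02% of all tested genes), 6 in BMP/FGF (7.79%, beside 4.98%) and 9 between them (11.7%, beside 13.5%). In BMP the called differences included Flcn (0.60), Calcoco1 (0.57), Pink1 (0.57), Zfyve1 (0.47), Vps11 (0.45), Wdfy3 (0.42), Tsc1 (0.41), Trp53inp1 (0.39), Rubcn (0.36), Prkaa1 (-0.32) and Foxo1 (-0.35). In BMP/FGF they included Trp53inp1 (0.61), Vps11 (0.53), Pink1 (0.48), Rragd (0.46) and Supt20 (-0.60). Between BMP/FGF and BMP they were Foxo1 (0.49), Fundc1 (0.35), Sesn1 (0.31), Ncoa4 (0.28), Tsc1 (-0.35), Wac (-0.37), Calcoco1 (-0.46), Prkab1 (-0.52) and Supt20 (-0.82). Supt20, a subunit of the SAGA coactivator that is also tied to ATG9A traffic, was lower than in EGF/FGF in both quiescent conditions, with means of 56.0, 27.8 and 32.6 CPM in EGF/FGF, BMP and BMP/FGF.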

How the results depend on the processing

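Across 10 other settings and 12 fits with 1 library left out, no change or line difference of an autophagy gene turned its direction past the threshold. Of 2508 values of single changes, 59 fell short of the threshold that the reported fit passed and 19 passed it where that fit did not, and of 2166 values of line differences 86 and 31. With 1 library left out, the number of genes higher in BMP ran from 28 to 29, lower from 5 to 6, past 1.5 from 2 to 2, and with a line difference from 1 to 9. In BMP/FGF against EGF/FGF these ranges were 28 to 30, 4 to 5, 2 to 3 and 0 to 7, and in BMP/FGF against BMP 6 to 8 higher, 7 to 10 lower and 0 to 5 with a line difference. With BL6 alone, 4 genes rose past 1.5 in BMP and 5 in BMP/FGF, in place of 2 and 2, and with ANS4 alone BMP/FGF exceeded BMP for 4 genes in place of 7, each from fewer libraries. Line differences in BMP numbered 3 in place of 5 with the DESeq2 Wald test, limma on rlog values, no filter or the replicate block, and 1 with only the 8 libraries compared. With those 8 libraries there were 8 in place of 4 in BMP/FGF and 0 in place of 2 between the quiescent states, where library size only gave 4. The cause was not tested.

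Library size only also moved the share of higher calls among all genes called between BMP/FGF and BMP from 48.5% to 39.1%, with the median of all tested genes at -0.05. Replicate numbers are not stated to mark shared cultures, and the differences between replicates 1 and 2 correlated at -0.0711 to 0.0529 between conditions of a line. The replicate block gave 29 genes higher and 6 lower in BMP, 28 and 4 in BMP/FGF, and 7 and 9 between the quiescent states. Counts are estimates that split reads between similar transcripts, so genes that share sequence carry an error that no setting here measures.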
